A study of Mus musculus with 2 samples.

Results

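The genes described here are 8 genes of antigen presentation, chosen by name among 16945 annotated genes that had a read in the mouse adrenal gland. They are the class I heavy chains H2-K1 and H2-D1, their light chain B2m, the peptide transporter subunit Tap1, the class II chains H2-Aa, H2-Ab1 and H2-Eb1, and Cd74, the invariant chain of class II. Their reads came from 108 transcript models in replicate 1 and 72 in replicate 2. Both libraries are long-read RNA sequencing of adrenal gland from female B6CASTF1/J mice aged 36 days. Such mice are offspring of a C57BL/6J by CAST/EiJ cross, and the labels give no engineered allele or treatment. There is 1 group of 2 libraries, labelled biological replicates 1 and 2, and no condition to compare. The labels name the same animal for both libraries in 1 field and different animals in another, so the spread given here is that between these libraries and may be technical.

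Class I molecules sit on nearly all nucleated cells and show short peptides from the cytosol to CD8 T cells. The proteasome cuts those peptides, the transporter of Tap1 and Tap2 carries them into the endoplasmic reticulum, and a heavy chain with B2m binds them there. Class II molecules are made mainly by macrophages, dendritic cells and B cells and show peptides from the endosome to CD4 T cells. Cd74 fills the groove of class II until cathepsins cut it away. In the mouse most of these genes lie together in the H2 complex, whose heavy and class II chains are among the most polymorphic genes known. A hybrid therefore carries 2 versions of each, and inbred strains can differ in sequence at many positions of these genes. Here all reads had been compared with the C57BL/6J genome, so the CAST/EiJ alleles were measured only as far as their reads aligned to it. Values of both alleles are summed and the alleles were not separated.

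Of the 8 genes, 6 lie on chromosome 17 of mm10. H2-K1 (ENSMUSG00000061232.16) lies at chr17:33996017-34000347 on the minus strand and H2-D1 (ENSMUSG00000073411.11) at chr17:35262730-35267499 on the plus strand. H2-Ab1 (ENSMUSG00000073421.6) lies at chr17:34257689-34269419, plus strand, H2-Aa (ENSMUSG00000036594.15) at chr17:34282744-34287823, minus strand, and H2-Eb1 (ENSMUSG00000060586.11) at chr17:34305867-34316674, plus strand. Tap1 (ENSMUSG00000037321.17) lies between H2-K1 and H2-Ab1 at chr17:34187553-34197225, plus strand. B2m (ENSMUSG00000060802.8) is at chr2:122147686-122153083 on the plus strand, and the place of Cd74 is given with its isoforms. The coding sequences of H2-K1-201 and H2-D1-202 in the annotation are 88.3% identical over 1116 aligned columns, with a longest shared run of 91 bases. H2-D1-202 shares 81.5% with the class I gene H2-Q7 and a run of 145 bases with H2-T23. Reads of such near copies were assigned upstream, so the counts of H2-K1 and H2-D1 are uncertain to that extent.

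The sequences that carry the main isoform result are the ends of the class I coding sequences, read 5′ to 3′ on the coding strand and taken from the GENCODE M21 transcripts on mm10. Each line begins with exon 7 and ends with the stop codon. H2-K1 has 2 annotated acceptors for its last exon, and capitals mark the bases that only H2-K1-201 keeps.
H2-K1-201: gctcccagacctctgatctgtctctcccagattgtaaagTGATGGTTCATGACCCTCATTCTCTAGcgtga
H2-K1-205: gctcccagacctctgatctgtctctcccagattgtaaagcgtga
H2-D1-202: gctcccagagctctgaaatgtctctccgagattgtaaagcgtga
The kept stretch is 27 bases at chr17:33996477-33996503, minus strand, which adds 9 codons before the same stop and gives coding lengths of 1107 and 1080 bases. These codons belong to the cytoplasmic tail of the heavy chain.

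H2-D1 has nearly the same bases at the end of its last intron, at chr17:35266839-35266865 on the plus strand. The runs of both genes are given next, each ending in the AG of an acceptor, and the lower case letter in H2-D1 is the base that differs.
H2-K1: TGATGGTTCATGACCCTCATTCTCTAG
H2-D1: TGATGGTTCATGACtCTCATTCTCTAG
They share 26 of 27 bases and differ by C15T, counted from 1 at the 5′ end with the H2-K1 base first. The intron is 139 bases long in both genes with the inner acceptor and 112 bases with the outer one.

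Summed over both alleles, H2-K1 reads were split about equally between both acceptors. The alleles were not separated, so the use of the acceptors by each allele was not tested. Among full-length reads across this junction, 187 of 369 in replicate 1 and 33 of 72 in replicate 2 kept the 27 bases. The shares were 50.7% in replicate 1, with a 95% exact interval of 45.5 to 55.9%, and 45.8% in replicate 2, with an interval of 34.0 to 58.0%. Their mean was 48.3 ± 3.43% (SD, n = 2), and a difference between the libraries was not detectable (two-sided Fisher's exact test, p = 0.520). In H2-D1 the matching 27 bases were kept in 2 of 631 full-length reads in replicate 1 and 1 of 211 in replicate 2. Those shares were 0.317% (0.0384 to 1.14%) in replicate 1 and 0.474% (0.0120 to 2.61%) in replicate 2. The intervals of the 2 genes did not overlap in either library. This pair of sites was chosen after its values were seen and is given as a description, without a test between the genes. H2-K1-205 had 165 reads in replicate 1 against 36 in replicate 2. H2-K1-201 had 162 in replicate 1 against 30 in replicate 2. One more annotated form, H2-K1-216, had 4 reads in replicate 1 and 1 in replicate 2.

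**Figure D1:**
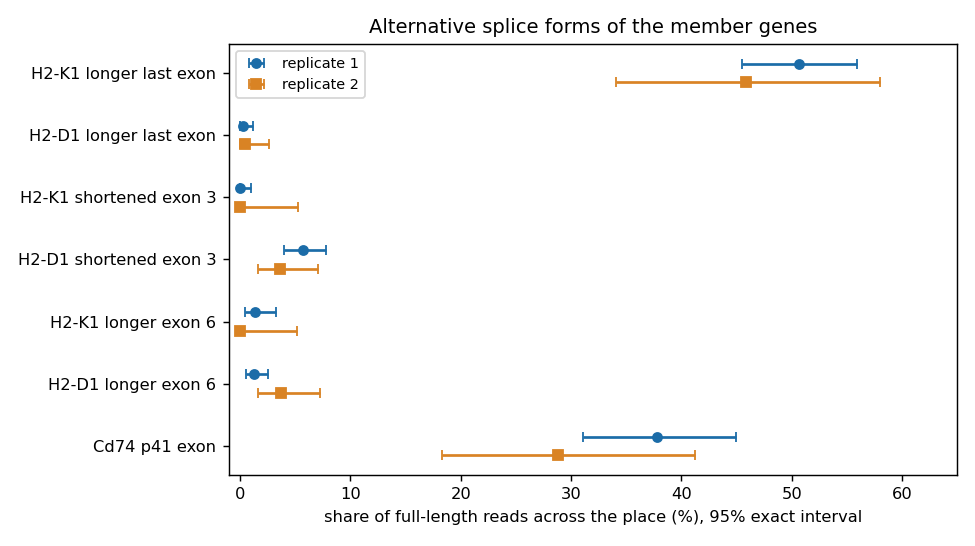
Share of full-length reads (percent, x axis) that carry each alternative splice form of H2-K1, H2-D1 and Cd74, with 95% exact intervals; blue circles are replicate 1 and orange squares replicate 2. The longer last exon takes 50.7% of H2-K1 reads in replicate 1 and 45.8% in replicate 2 but under 1% of H2-D1 reads in either, and p41 takes 37.8% and 28.8% of Cd74 reads in replicates 1 and 2.

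H2-D1 was read mainly as H2-D1-202, which had 561 reads in replicate 1 and 189 in replicate 2. Its most read unannotated form left out the first 114 bases of exon 3, the exon of 276 bases that encodes the second domain of the peptide groove. Exon 3 is printed here from chr17:35263839-35264114, plus strand, with the bases that this form leaves out in capitals.
H2-D1 exon 3: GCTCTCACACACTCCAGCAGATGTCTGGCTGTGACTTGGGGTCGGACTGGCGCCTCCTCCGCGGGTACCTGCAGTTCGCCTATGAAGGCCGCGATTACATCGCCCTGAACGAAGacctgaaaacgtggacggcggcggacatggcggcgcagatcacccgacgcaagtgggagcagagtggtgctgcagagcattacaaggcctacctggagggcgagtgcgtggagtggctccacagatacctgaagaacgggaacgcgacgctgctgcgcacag
The capitals end in AG and amount to 38 whole codons, so the reading frame is kept. This form had 36 reads in replicate 1 and 8 in replicate 2. It made up 5.69% (4.01 to 7.79%) of 633 full-length reads across the junction in replicate 1 and 3.65% (1.59 to 7.07%) of 219 in replicate 2, a mean of 4.67 ± 1.44% (SD, n = 2). H2-K1 had no read with the matching acceptor. That was 0 of 358 full-length reads in replicate 1, which allows a share of up to 0.838% by the floor of 3 reads, and 0 of 68 in replicate 2, which allows up to 4.41%.

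Another form of H2-D1 began exon 6 earlier by 15 bases, 5 codons, through an acceptor that the annotation gives to the partial transcript H2-D1-201. The added bases are in capitals before exon 6 of 33 bases, at chr17:35266467-35266514, plus strand.
H2-D1 longer exon 6: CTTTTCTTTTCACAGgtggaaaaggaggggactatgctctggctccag
It had 8 of 619 full-length reads in replicate 1 (1.29%, 0.560 to 2.53%) and 8 of 213 in replicate 2 (3.76%, 1.64 to 7.27%). H2-K1 used the matching site in 5 of 356 reads in replicate 1 and 0 of 69 in replicate 2, where up to 4.35% is allowed. Over the 7 splice shares compared between the libraries, this one in H2-D1 had the smallest p by Fisher's exact test, 0.0382, which was 0.267 after Benjamini-Hochberg adjustment over the 7.

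Most unannotated forms were of the class I heavy chains. By intron chain, 28 unannotated full-length forms were read for H2-D1 and 22 for H2-K1, against 61 over all 8 genes, but only 7 of the H2-D1 forms and 2 of the H2-K1 forms were seen in both libraries. The other 6 members had none in both. Beyond the 3 H2-D1 forms above, the most read recurrent one ran exon 5 on into its intron and left out exon 6, with 8 reads in replicate 1 and 2 in replicate 2. The next kept the intron between exons 5 and 6, with 4 reads in replicate 1 and 2 in replicate 2. The 2 recurrent forms of H2-K1, a longer exon 2 and a retained second intron, each had 5 reads in replicate 1 and 1 in replicate 2. These genes also have more reads in total than the other members, and the part of read number in the number of forms was not tested.

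Whole introns were kept in a few reads of the heavy chains and of Tap1. In H2-D1 the last intron was retained in 4.25% of reads that covered it in replicate 1 and 7.78% in replicate 2. These were 30 reads in replicate 1 and 20 in replicate 2, of which 9 and 5 belonged to unspliced models of 1 exon. The first intron of H2-D1 was retained in 3.11% in replicate 1 and 3.00% in replicate 2. In H2-K1 the first intron was retained in 4.42% of such reads in replicate 1 and 5.41% in replicate 2. For B2m, Cd74, H2-Aa, H2-Ab1 and H2-Eb1, no intron exceeded 1% retention in either library. In Tap1, intron 4 was retained in 2 of 32 reads (6.25%) in replicate 1 and intron 7 in 1 of 36 (2.78%). Those 2 reads were of the annotated form Tap1-205, whose first exon covers intron 4 of Tap1-206. No intron was retained in replicate 2, where 8 to 10 reads covered each.

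Cd74 (ENSMUSG00000024610.15, chr18:60803848-60812652, plus strand) was read as both forms of the invariant chain. The short form, p31, is Cd74-201 with 8 exons and 215 codons, and the long form, p41, is Cd74-202 with 9 exons and 279 codons. The extra exon is exon 7 of Cd74-202, chr18:60811294-60811485, 192 bp or 64 codons, which encodes the thyroglobulin type domain known to bind cathepsin L. Cd74-201 had 124 reads in replicate 1 and 46 in replicate 2, and Cd74-202 had 76 reads in replicate 1 and 19 in replicate 2. The p41 exon was present in 37.8% of 201 full-length reads in replicate 1 (31.1 to 44.9%) and in 28.8% of 66 in replicate 2 (18.3 to 41.3%). The mean was 33.3 ± 6.38% (SD, n = 2), and p31 was the more read form in both libraries. The difference between libraries was not detectable at this depth (two-sided Fisher's exact test, p = 0.236). All Cd74 reads of both libraries reached the last exon, and the first exon was reached by 93.5% in replicate 1 and 95.7% in replicate 2.

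The remaining members were read mostly as 1 form. B2m-201 took 100% of full-length B2m reads in both libraries, with 318 reads in replicate 1 and 142 in replicate 2. H2-Ab1-201 took 98.2% in replicate 1 and 97.6% in replicate 2. H2-Aa-201 had 21 reads in replicate 1 and 9 in replicate 2, H2-Eb1-203 had 46 in replicate 1 and 19 in replicate 2, and Tap1-206 had 28 in replicate 1 and 8 in replicate 2. Over the 3005 genes that had 20 or more full-length reads in both libraries, the share of the leading form differed between libraries in 31, or 1.03% (Fisher's exact test, adjusted p under 0.05). None of the 5 members tested was among them, nor under an unadjusted p of 0.05 by the same Fisher's exact test. They were H2-K1, H2-D1, B2m, Cd74 and H2-Ab1, with adjusted p of 1 each.

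Levels are given as CPM, reads per 1000000 reads of annotated genes. The libraries held 1144572 such reads in replicate 1 and 414588 in replicate 2, so 3 reads stand for 2.62 CPM in replicate 1 and 7.24 CPM in replicate 2. Steroidogenic markers summed to 54462 CPM in replicate 1 and 71616 CPM in replicate 2. Of these, Cyp11a1 alone had 20811 CPM in replicate 1 and 41366 CPM in replicate 2, but 11180 and 10044 CPM on full-length reads. Markers of the medulla summed to 9944 CPM in replicate 1 and 6739 CPM in replicate 2, so both libraries carried the labelled tissue's markers. Between the libraries, 2 of 6 steroidogenic and 3 of 5 medulla markers were called higher in replicate 1, and 1 and 0 in replicate 2. Over all genes in the same exact binomial test those shares were 6.13% and 7.86%. A long read is counted once whatever its length, so CPM is not divided by length, and the scale per kb is given after it. An effect of transcript length on which molecules were read was not tested.

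Class I genes were the most read members and H2-D1 led them. H2-D1 had 712 reads, 622 CPM, in replicate 1 and 257 reads, 620 CPM, in replicate 2, a mean of 621 ± 1.54 CPM (SD, n = 2) and rank 227 of 16945 genes by mean CPM. H2-K1 had 452 reads, 395 CPM, in replicate 1 and 127 reads, 306 CPM, in replicate 2, a mean of 351 ± 62.6 CPM. H2-D1 was the higher in both libraries, with 1.58 reads per H2-K1 read in replicate 1 and 2.02 in replicate 2. In whole tissue, fewer cells of a type and less RNA per cell cannot be told apart, here or for any level that follows.

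B2m, the light chain that every class I heavy chain needs at the cell surface, had 339 reads, 296 CPM, in replicate 1 and 151 reads, 364 CPM, in replicate 2 (mean 330 ± 48.1 CPM). The levels of B2m and H2-K1 overlapped between libraries. H2-K1 and H2-D1 together had 3.43 reads per B2m read in replicate 1 and 2.54 in replicate 2, so heavy chains outnumbered the light chain on the read scale in both libraries. Tap1, an ATP-driven subunit, had 37 reads, 32.3 CPM, in replicate 1 and 12 reads, 28.9 CPM, in replicate 2 (mean 30.6 ± 2.39 CPM).

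Cd74 led the class II side. It had 215 reads, 188 CPM, in replicate 1 and 69 reads, 166 CPM, in replicate 2 (mean 177 ± 15.1 CPM). H2-Ab1, the beta chain of the I-A molecule, had 119 reads, 104 CPM, in replicate 1 and 47 reads, 113 CPM, in replicate 2 (mean 109 ± 6.64 CPM). There were 1.81 Cd74 reads per H2-Ab1 read in replicate 1 and 1.47 in replicate 2.

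H2-Eb1, the beta chain of I-E, had 52 reads, 45.4 CPM, in replicate 1 and 21 reads, 50.7 CPM, in replicate 2 (mean 48.0 ± 3.69 CPM). H2-Aa, the alpha chain of I-A and so the partner of H2-Ab1, had 23 reads, 20.1 CPM, in replicate 1 and 14 reads, 33.8 CPM, in replicate 2 (mean 26.9 ± 9.67 CPM). H2-Ab1 was read more often than its partner in both libraries, 5.17 times as often in replicate 1 and 3.36 times in replicate 2. H2-Ab1 exceeded H2-Eb1 by 2.29 times in replicate 1 and 2.24 times in replicate 2.

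**Figure D2:**
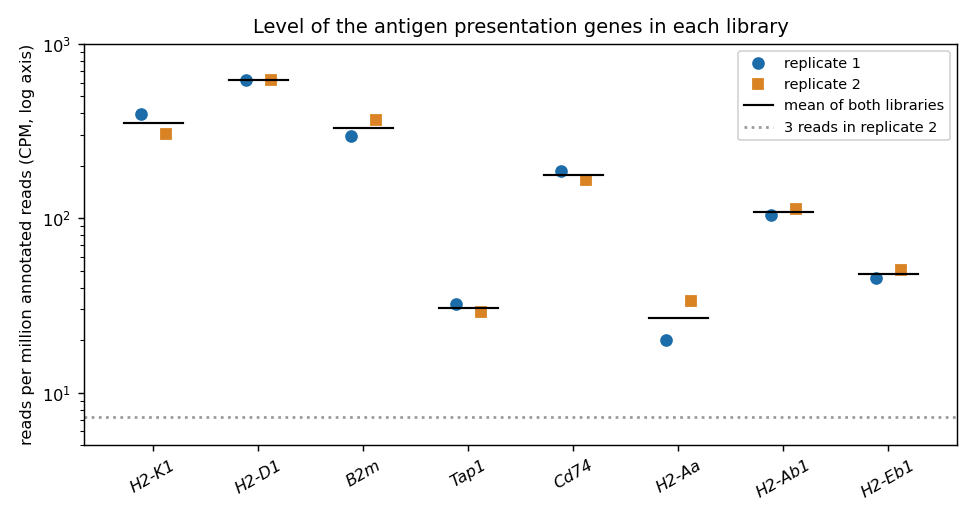
Level of each member gene in CPM (log axis); blue circles are replicate 1, orange squares replicate 2, bars the mean of both, and the dotted line is 3 reads in replicate 2. H2-D1 lies at 622 CPM in replicate 1 and 620 CPM in replicate 2, and H2-Aa and Tap1 are the lowest.

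In order of mean CPM, the members ran H2-D1, H2-K1, B2m, Cd74, H2-Ab1, H2-Eb1, Tap1 and H2-Aa. H2-K1 and B2m overlapped in range between the libraries, as did Tap1 and H2-Aa, and the other neighbours did not. Divided by the length of the leading transcript, which is 860 bases for B2m and 2102 for H2-D1, the mean level per kb was highest for B2m at 384 ± 55.9 CPM per kb, then H2-D1 at 295 ± 0.731. It was lowest for Tap1 at 10.4 ± 0.810 CPM per kb, whose transcript is the longest of the members at 2953 bases.

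H2-K1 and H2-D1 together reached 1017 CPM in replicate 1 and 926 CPM in replicate 2, against 169 CPM in replicate 1 and 198 CPM in replicate 2 for the 3 class II chains. The ratio of class I heavy chains to class II chains was 6.0 in replicate 1 and 4.68 in replicate 2, a mean of 5.34 ± 0.931 (SD, n = 2). With all listed class I and class II genes the ratio was 9.69 in replicate 1 and 6.95 in replicate 2. That class I list also holds class I-like genes outside the H2 names, Cd1d1, Fcgrt, Hfe and Mr1 among them. Cd1d1 had 387 CPM in replicate 1 and 236 CPM in replicate 2, and Fcgrt 155 and 162 CPM. Their part in the wider ratio was not tested.

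Among markers of cells that make class II, those of macrophages had the most reads. The 15 macrophage markers all had a read in at least 1 library, and 12 had reads in both. They summed to 368 CPM in replicate 1 and 323 CPM in replicate 2. Sums of the marker lists depend on the number and choice of their genes and do not measure numbers of cells. Adgre1, Itgam and Fcgr1 had 2, 1 and 1 reads in replicate 1 and 0 in replicate 2, and Cd163 had 1 in each. Lyz2, lysozyme, led with 123 CPM in replicate 1 and 84.4 CPM in replicate 2, and the complement genes C1qa, C1qb and C1qc also had more CPM in replicate 1. Tyrobp, a signalling adaptor of myeloid cells, had 12 reads, 10.5 CPM, in replicate 1 and 14 reads, 33.8 CPM, in replicate 2, and Fcer1g, Csf1r and Laptm5 also had more CPM in replicate 2. Of the 9 macrophage markers tested between the libraries by the exact binomial test, Tyrobp alone was called (log2 ratio of replicate 1 over replicate 2 of -1.67, adjusted p = 0.0221). Over all 9885 genes tested, 14.0% were called. Of 9 dendritic cell markers, 2 had reads, summing to 13.1 CPM in replicate 1 and 14.5 CPM in replicate 2, while Flt3, Xcr1, Clec9a, Cd209a, Itgax, Ccr7 and Siglech had 0 reads in both libraries. Of 8 B cell markers, 5 had reads, at 15.7 CPM in replicate 1 and 26.5 CPM in replicate 2, with Ms4a1, Pax5 and Jchain at 0. Of 10 markers of T and NK cells, 2 had reads, 3 in replicate 1 and 0 in replicate 2. Pan-leukocyte markers summed to 21.8 CPM in replicate 1 and 24.1 CPM in replicate 2, and endothelial markers to 522 CPM in replicate 1 and 492 CPM in replicate 2. The part of any of these cells in the class I and class II levels was not tested.

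The libraries were compared gene by gene with a two-sided exact binomial test on reads, adjusted by Benjamini-Hochberg over 9885 genes, which sets these 2 libraries against counting error and does not describe mice in general. It called 1383 genes, 14.0% of those tested (6.13% higher in replicate 1 and 7.86% higher in replicate 2), and 0 of the 8 members. With DESeq2 size factors it also called 0 members, against 13.9% of all genes tested, and 2 members had an unadjusted p under 0.05. In the exact binomial test, B2m had a log2 ratio of replicate 1 over replicate 2 of -0.37 (p = 0.00966, adjusted p = 0.0636). H2-K1 had 0.29 (exact binomial p = 0.0408, adjusted p = 0.173). H2-Aa had the widest ratio, -0.79 on few reads (adjusted p = 0.294). The other 5 lay between -0.22 and 0.10.

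H2-K1 and B2m depended on which reads were counted. Transcript models carry a class: Known for an annotated transcript, NIC for a new combination of known splice sites, NNC for a form with a new site, ISM for a form that lacks part of an annotated transcript, and Genomic for models taken as unspliced or genomic. Known, NIC and NNC are called full-length here, which names the class and not the reach of a read. Of such reads of the members, 7 of 1746 in replicate 1 and 7 of 581 in replicate 2 lacked the first or the last exon of the leading transcript. On full-length reads H2-K1 was higher in replicate 1, with a level of 396 CPM in replicate 1 and 229 CPM in replicate 2, a log2 ratio of 0.77 and an adjusted p of 0.000242 by the same exact binomial test. On full-length reads B2m was lower in replicate 1, with 339 CPM in replicate 1 and 452 CPM in replicate 2, a log2 ratio of -0.43 and an adjusted p of 0.0276. The other members passed the threshold under none of these counts. Over all genes, 15.2% of 8202 tested were called on full-length reads and 15.2% of 9133 without the Genomic class.

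**Figure D3:**
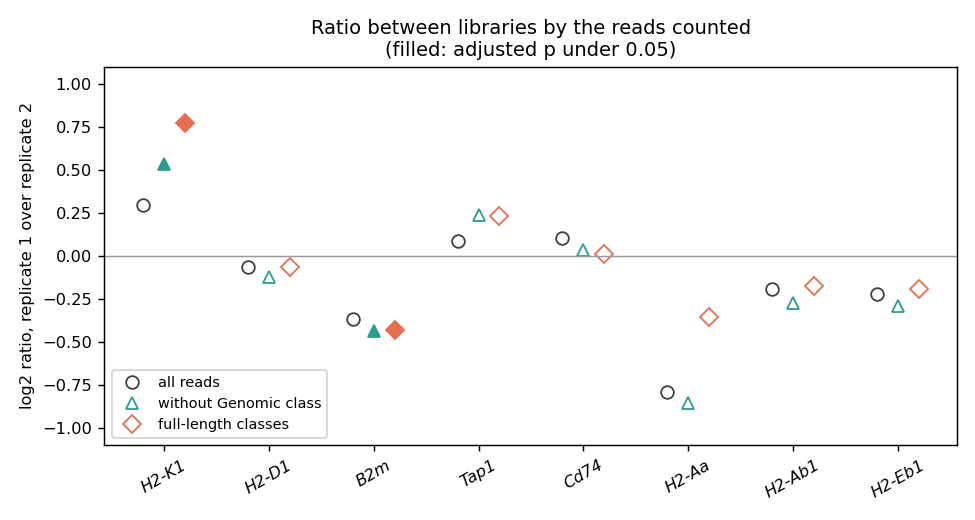
Log2 ratio of replicate 1 over replicate 2 for each member with all reads, without the Genomic class and with full-length classes; filled points have an adjusted p under 0.05 in the exact binomial test. H2-K1 lies at 0.29 with all reads and 0.77 with full-length reads and B2m at -0.37 and -0.43, while the other members are not called.

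Full-length reads were 69.4 ± 18% of H2-K1 reads (SD, n = 2), the lowest of the 8, with 82.1% in replicate 1 and 56.7% in replicate 2. Among 3694 genes with at least 20 reads in each library the median was 87.5%, and H2-K1 lay at percentile 18.5. The Genomic class held 37 H2-K1 reads in replicate 1 and 33 in replicate 2, or 8.19% in replicate 1 and 26.0% in replicate 2. All of them belonged to 1 unspliced model per library, listed at chr17:33996017-33996106 in both. It is 90 bp long and lies within the 3′ end of the last exon. Of H2-K1 reads, 85.2% reached the first exon in replicate 1 and 58.3% in replicate 2. The last exon was reached by 99.8% in replicate 1 and 100% in replicate 2. H2-D1, its near copy, reached the first exon in 94.9% of reads in replicate 1 and 90.7% in replicate 2.

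The other members were read more completely. Full-length shares averaged 94.6 ± 1.53% for Cd74, 93.9 ± 0.166% for B2m, 93.3 ± 4.01% for H2-Eb1, 91.7 ± 3.36% for H2-Ab1 and 88.2 ± 2.58% for H2-D1. Tap1 averaged 80.7 ± 8.12% and H2-Aa 77.8 ± 19.1%, on few reads. Over all members the share was 86.4 ± 4.49%, and over all annotated genes 78.8 ± 4.37%. Over all annotated genes the share was 81.9% in replicate 1 and 75.7% in replicate 2, and the part of read completeness in the H2-K1 ratio was not tested.

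**Figure D4:**
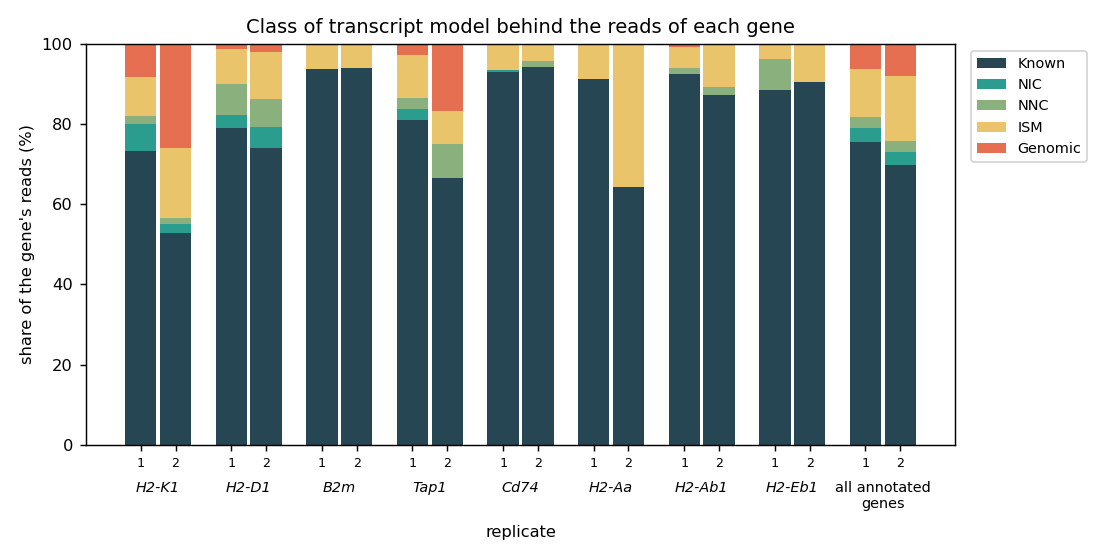
Share of each gene's reads (percent) by class of transcript model, replicate 1 left and replicate 2 right of each pair, with all annotated genes at the far right. Genomic reads take 26.0% of H2-K1 in replicate 2, and Known models take 93.8% of B2m reads in replicate 1 and 94.0% in replicate 2.

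Other H2 class I genes were read far less than H2-K1 and H2-D1. H2-T23, the gene of Qa-1, had 104 reads, 90.9 CPM, in replicate 1 and 25 reads, 60.3 CPM, in replicate 2. H2-T22, a ligand of gamma delta T cells, had 30 reads in replicate 1 and 16 in replicate 2, and H2-Q10, best known from liver, had 14 in replicate 1 and 4 in replicate 2. H2-Q6, H2-Q7, H2-M3, H2-K2 and H2-T24 had reads in both libraries, at most 6 in either. Cd1d1, which presents lipids, had 443 reads, 387 CPM, in replicate 1 and 98 reads, 236 CPM, in replicate 2, a level below that of H2-K1 in both libraries with all reads. On full-length reads the order turned, with Cd1d1 at 426 CPM in replicate 1 and 277 CPM in replicate 2 against H2-K1 at 396 CPM in replicate 1 and 229 CPM in replicate 2. It turned likewise without the Genomic class, with Cd1d1 at 411 CPM in replicate 1 and 257 CPM in replicate 2 against H2-K1 at 387 CPM in replicate 1 and 247 CPM in replicate 2. Cd1d1 was the 1 gene of 9 tested in the class I list that was called, higher in replicate 1 (log2 0.64, adjusted p = 0.000697, exact binomial test). Over all genes tested, 6.13% were called higher in replicate 1. H2-Ke6, which shares the prefix but encodes no presenting chain, had 265 reads in replicate 1 and 81 in replicate 2.

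In the list of class I assembly, 2 of 9 tested genes were higher in replicate 1 and 0 in replicate 2, against 6.13% and 7.86% over all genes tested. Tap2, the partner subunit of Tap1, had 165 reads, 144 CPM, in replicate 1 and 16 reads, 38.6 CPM, in replicate 2 (log2 1.80, adjusted p = 5.91e-07, exact binomial test), while Tap1, with 32.3 CPM in replicate 1 and 28.9 CPM in replicate 2, was not called. Pdia3, a disulfide isomerase of the loading complex, had 459 CPM in replicate 1 and 263 CPM in replicate 2 (log2 0.73, adjusted p = 1.36e-05). Tapbp, tapasin, had 177 CPM in replicate 1 and 178 CPM in replicate 2. The chaperones Calr and Canx had 196 and 204 CPM in replicate 1 and 140 and 154 CPM in replicate 2, and neither was called.

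Of 5 immunoproteasome genes, against 6.13% and 7.86% over all genes tested, 0 were higher in replicate 1 and 1 in replicate 2. That was Psmb8, a catalytic subunit, with 57 reads, 49.8 CPM, in replicate 1 and 50 reads, 121 CPM, in replicate 2 (log2 -1.33, adjusted p = 7.88e-05, exact binomial test). Without the Genomic class it had 57 reads, 53.1 CPM, in replicate 1 and 28 reads, 73.5 CPM, in replicate 2. It was then not called (log2 -0.57, adjusted p = 0.303, exact binomial test). On full-length reads it was called, with 41 reads in replicate 1 and 28 in replicate 2 (log2 -1.03, adjusted p = 0.0352, exact binomial test). Psmb9, whose gene is the close neighbour of Tap1, had 17.5 CPM in replicate 1 and 36.2 CPM in replicate 2 (adjusted p = 0.143). The activator subunits Psme1 and Psme2 had 179 and 262 CPM in replicate 1 and 229 and 314 CPM in replicate 2, not called.

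None of the 5 class II chain genes tested was called, against 14.0% of all genes tested. None had an unadjusted p under 0.05 in the exact binomial test either, and 6 of those listed had reads. Besides the members these were H2-DMa with 6 reads in replicate 1 and 5 in replicate 2, H2-DMb1 with 9 in replicate 1 and 2 in replicate 2, and H2-Ea-ps with 4 in replicate 1 and 2 in replicate 2. H2-DM chains exchange peptides on class II, and H2-Ea-ps is the annotation's pseudogene for the alpha chain partner of H2-Eb1. H2-Oa, H2-Ob, H2-Eb2 and H2-DMb2 had 0 reads in both libraries. Among 7 tested genes of class II processing, 1 was called higher in replicate 1 and 1 in replicate 2, against 6.13% and 7.86% over all genes tested. Ctsd was higher in replicate 1, with 2108 CPM in replicate 1 and 1594 CPM in replicate 2. Ctsb was lower in replicate 1, with 2055 CPM in replicate 1 and 2258 CPM in replicate 2. Both are lysosomal proteases of many cells, and the other 5 tested were not called. Ctsl, the cathepsin that binds p41, had 728 CPM in replicate 1 and 634 CPM in replicate 2, and Ctss, the main protease of Cd74 in antigen presenting cells, had 30.6 CPM in replicate 1 and 38.6 CPM in replicate 2.

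Of 11 tested regulators, against 14.0% of all genes tested, none was called, with 1 at an unadjusted p under 0.05. That was Rfxank, a subunit of the RFX complex, with 13.1 CPM in replicate 1 and 28.9 CPM in replicate 2 (exact binomial p = 0.0437, adjusted p = 0.182). No read of Ciita, the master activator of class II, was found, and its level could be as high as 2.62 CPM in replicate 1 and 7.24 CPM in replicate 2. Nlrc5, its counterpart for class I, had 1 read in replicate 1 and 0 in replicate 2. Irf1, an activator of class I, had 26.2 CPM in replicate 1 and 26.5 CPM in replicate 2, and Irf8, a factor of myeloid cells, had 71.6 CPM in replicate 1 and 72.4 CPM in replicate 2. In the interferon list, against 6.13% and 7.86% over all genes tested, 0 of 22 tested genes were higher in replicate 1 and 2 in replicate 2. They were Psmb8 and Ifitm2, an antiviral membrane protein with 376 CPM in replicate 1 and 521 CPM in replicate 2 (log2 -0.54, adjusted p = 0.000196, exact binomial test). Without the Genomic class Ifitm2 was still called, at 401 CPM in replicate 1 and 567 CPM in replicate 2 (log2 -0.61, adjusted p = 1.89e-05, exact binomial test), and Psmb8 was not. On full-length reads both were called. The interferon gamma receptor genes Ifngr1 and Ifngr2 had 69.0 and 64.7 CPM in replicate 1 and 57.9 and 55.5 CPM in replicate 2. The median log2 ratio was 0.25 for the class I list, 0.33 for assembly, -0.42 for the immunoproteasome, -0.22 for class II chains, -0.21 for class II processing, -0.09 for regulators and 0.09 for interferon genes, against 0.01 over all 9885 genes.

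**Figure D5:**
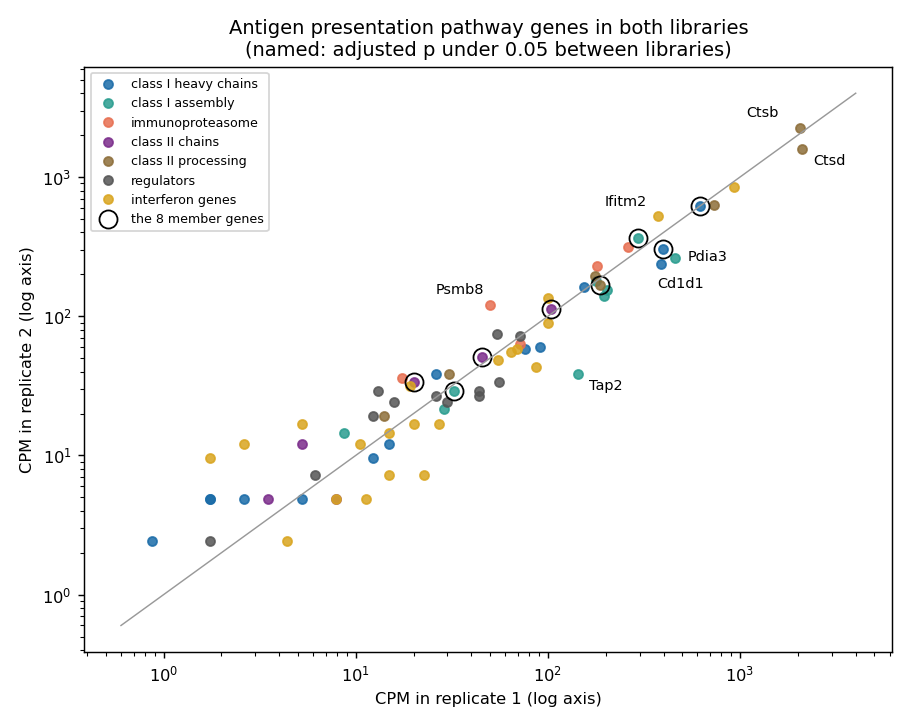
CPM in replicate 1 (x) and replicate 2 (y), both on log axes, for listed genes with a read in both libraries, coloured by list; black rings mark the 8 member genes and the line is equality. Named genes differ between libraries at an adjusted p under 0.05, with Tap2 below the line at 144 CPM in replicate 1 and 38.6 CPM in replicate 2.

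The promoters of class I and class II genes are known for a shared upstream module that ends in a CCAAT element bound by NF-Y. RefSeq promoter windows on GRCm38.p6, 250 bases before to 50 after the start, were at hand for 6 of the 8 members. CCAAT or its reverse complement ATTGG, searched on both strands, was found for all 6, named B2m, H2-Aa, H2-D1, H2-Eb1, H2-K1 and Tap1. A member counted if any of its windows held it. Over all genes the count was per window, with the motif in 37.4% of 32851 windows, so these are unlike units. The motif was chosen after the sequences were seen. The 100 bases before the start are given for 4 members, with either strand's CCAAT in capitals. Positions are chr17:35262994-35263093, plus strand, for H2-D1, chr2:122147587-122147686, plus strand, for B2m, chr17:34287824-34287923, minus strand, for H2-Aa and chr17:34305767-34305866, plus strand, for H2-Eb1.
H2-D1: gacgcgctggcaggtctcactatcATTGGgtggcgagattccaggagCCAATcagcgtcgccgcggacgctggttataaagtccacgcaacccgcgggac
B2m: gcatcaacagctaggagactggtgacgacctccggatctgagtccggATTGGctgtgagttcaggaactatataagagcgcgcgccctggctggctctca
H2-Aa: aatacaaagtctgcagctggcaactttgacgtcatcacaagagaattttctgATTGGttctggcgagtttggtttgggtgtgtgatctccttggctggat
H2-Eb1: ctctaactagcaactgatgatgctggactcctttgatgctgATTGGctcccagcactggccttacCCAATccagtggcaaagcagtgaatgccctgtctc
The first such element began 53 bases before the start in B2m, 48 in H2-Aa, 59 in H2-Eb1 and 76 in H2-D1. In Tap1 it began 222 bases before the start, outside the 100 bases printed for the others. H2-K1 has 2 overlapping windows, where it began 16 bases before one start and 30 before the other. A match of letters is a description and not evidence of binding. The NF-Y subunit genes Nfyb and Nfyc had 43.7 and 43.7 CPM in replicate 1 and 28.9 and 26.5 CPM in replicate 2, while Nfya, the third subunit, had 2 reads in replicate 1 and 1 in replicate 2.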

How the data were processed

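Long-read RNA sequencing reads of 2 adrenal gland libraries were used as the authors deposited them: whole-read counts per transcript model, with no normalization. The labels' protocols name the ENCODE analysis pipeline for mouse long reads. Per the file headers and notes they were aligned to mm10 and compared with GENCODE M21, and TALON named the models. The number of exons and length of each model are other values deposited per the file headers. Not given in the sources used here: the aligner, tool versions and how reads matching several H2 genes were placed. Per the labels replicate 1 started from 1 µg of RNA, and no quantity was used for replicate 2.

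Total reads were 1223776 in replicate 1 and 453761 in replicate 2, of which spike-ins took 2.12% in replicate 1 and 3.65% in replicate 2. Counts were summed per gene and divided by reads of annotated genes. Ratios of replicate 1 over replicate 2 used TMM factors (edgeR 4.0.16, R 4.3.3) of 1.03 and 0.976 and a pseudocount of 1. Genes with at least 10 reads in total entered a two-sided exact binomial test, with Benjamini-Hochberg adjustment and a threshold of 0.05, and were also scaled by DESeq2 1.42.0 size factors. The tests were run in Python 3.11.15 with scipy 1.17.1 and checked on simulated data. A count model between single libraries has no residual degrees of freedom. Intervals are 95% Clopper-Pearson intervals. Intervals and the floor of 3 reads cover counting error only. Retention and junction shares used reads whose model spans the place. Isoforms were matched between libraries by intron chain.

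The members and 7 pathway and 8 marker lists were chosen with earlier results of these data known. Named genes are the members, their models with at least 3 reads, list genes of at least 20 CPM and H2 genes read in both libraries, up to 30, with absent list members added after their values were seen. The splice sites compared between H2-K1 and H2-D1 and the promoter motif were chosen after the sequences and values were seen.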

Additional observations from a re-analysis of the deposited data

Results flagged for a closer look

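B2m had reads on the opposite strand in 1 library. Models classed as antisense to B2m held 0 reads in replicate 1 and 20 reads in replicate 2, against 339 and 151 sense reads in replicates 1 and 2, so they were 11.7% of reads at the locus in replicate 2. Of these, 19 belonged to a model of 2 exons at chr2:122147686-122151151 whose 2 exons have the same ends as exons 1 and 2 of B2m. Antisense reads at the other members were 3 in replicate 1 and 2 in replicate 2 at H2-K1, 10 in replicate 1 and 3 in replicate 2 at H2-D1, 1 in replicate 1 and 0 in replicate 2 at Cd74, and 0 elsewhere. These reads are in no level and no test given for B2m. The libraries were not compared with these reads counted as B2m, so the B2m result holds only without them. The cause of the antisense reads was not tested.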

How the results depend on the processing

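No member was called between the libraries with all reads, under DESeq2 size factors, under scaling by total reads or without a minimum of reads. H2-K1 passed without the Genomic class (log2 0.54, adjusted p = 0.00864) and with models of more than 1 exon (0.58, adjusted p = 0.00395, an alternative chosen after seeing the data), besides full-length reads. B2m passed without the Genomic class (-0.44, adjusted p = 0.0198), with a minimum of 20 reads (-0.38, adjusted p = 0.0462) and with models of more than 1 exon (-0.41, adjusted p = 0.0390), all by the exact binomial test. The shares called over all genes tested were 15.2% without the Genomic class and 15.2% on full-length reads. They were 18.1% with a minimum of 20 reads and 14.3% with models of more than 1 exon. H2-D1, near 0 throughout, changed sign under scaling by total reads (log2 0.0050) and without a minimum (0.038), and the cause was not tested. The ratio of class I to class II was 8.32 ± 1.94 with all listed genes, which include class I-like genes such as Cd1d1 and Fcgrt. The isoform test called 20 of 2746 genes on the Known class alone, where fewer genes were tested, and the members' full-length share was 80.3% with Known models alone. Leaving out a replicate gave 28.8 to 37.8% for p41, 4.68 to 6.0 for the class ratio and 83.2 to 89.6% for the full-length share. Of the other values set against an alternative, 89 kept their side and 8 levels shifted by more than the spread between libraries, all upward. Those 8 were levels on full-length reads or without the Genomic class. CPM was there divided by the reads of the counted classes alone, which were fewer. No paired analysis was possible because the libraries form 1 group. Depth limits replicate 2, where Tap1 and H2-Aa rest on 12 and 14 reads.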
